A study of Mus musculus with 10 samples.

Results

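The genes described here are those of the cytosolic ribosomal proteins, the protein parts of the ribosomes that translate nuclear mRNAs. Members were the protein-coding genes whose symbol is Rpl or Rps followed by a digit, together with Rplp0, Rplp1, Rplp2 and Rpsa, without pseudogene symbols and without the Rps6k kinases, which gave 86 of 54838 listed genes. Of these, 31 encode proteins of the small subunit, 43 of the large subunit and 3 of the stalk, and 8 are paralogs of such genes. The remaining member, Rps19bp1, met the symbol rule but encodes a protein that binds Rps19 and is no part of the ribosome. The libraries came from crypts of the jejunum, 5 from WT mice and 5 from Arid3a cKO mice, 1 per animal. The cKO genotype is VillinCre-ERT2+/-; Arid3a fl/fl, in which the Villin promoter drives a tamoxifen-activated Cre in intestinal epithelial cells, so other cells of the crypt preparation keep the gene. Animals of both groups were injected with tamoxifen on 3 consecutive days and killed 1 month after the first injection, and their age, their sex and whether WT animals carried the Cre were not stated in the sources used here. Villi had been scraped off the tissue, and polyadenylated RNA of the crypts was sequenced.

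Arid3a had expected counts of 55, 60, 81, 80 and 74 in the WT libraries and of 9, 14, 14, 26 and 31 in the cKO libraries, so the groups did not overlap. The libraries held between 27050455 and 31053622 expected counts. Epithelial markers (Epcam, Vil1, Cdh1, Krt8) summed to between 4278 and 4846 CPM, the counts scaled to a common normalized library size, in WT crypts and to between 5041 and 5691 CPM in cKO crypts. Markers of T cells, B and plasma cells, myeloid cells, stroma and muscle summed to at most 129 CPM per list in any library.

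Each ribosome holds 1 copy of nearly every ribosomal protein, so cells make these proteins in close to equal numbers, and their mRNAs are among the most abundant in dividing tissue such as the intestinal crypt. The small subunit reads the mRNA, the large subunit joins the amino acids, and the stalk proteins recruit the elongation factors. Most of the mRNAs start with a cytosine followed by a run of pyrimidines (C or T), the TOP motif, through which the growth-sensing kinase mTOR and the RNA-binding protein Larp1 control their translation. Each gene also has many processed pseudogenes, copies of the mRNA inserted elsewhere in the genome, whose sequence can be the same as that of the expressed gene.

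The start regions of a few members show these features. RefSeq promoters (GRCm38.p6, 250 bases before and 50 bases from each gene's start) were matched by symbol to 57 of the 77 subunit and stalk genes. A run of 8 or more C or T within 20 bases of the start was present in 28 of the 57 (49.1%), against 18.4% of all 27025 genes with such a promoter. The letters CGGAAG, the core of sites for ETS factors, stood on either strand in 40 of the 57 (70.2%), against 18.8% of all genes, and TATAAA on either strand in 6 of the 57 (10.5%), against 15.7%. Both of the first 2 features were present in 18 members (31.6%), against 3.06% of all genes. The sequences below run from 60 bases before to 20 bases from the start, 5′ to 3′ on the strand of the gene. Capitals mark a run of 8 or more C or T within 20 bases of the start and CGGAAG or its reverse complement CTTCCG, which can overlap the run. In the bases shown, Rps6, Rps10, Rps18 and Rpl38 hold both features, Rplp2 holds the run alone and Rpl10 neither. The counts of CGGAAG above are over all 300 bases, and the run was sought around the annotated start only. Rps27 is set beside its near-identical copy Rps27rt.
Rps6 (chr4:86857348-86857427, minus strand): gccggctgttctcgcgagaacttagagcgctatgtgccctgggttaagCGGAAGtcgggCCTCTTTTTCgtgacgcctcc
Rps10 (chr17:27635225-27635304, minus strand): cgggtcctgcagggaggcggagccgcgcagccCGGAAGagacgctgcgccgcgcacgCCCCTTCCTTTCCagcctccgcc
Rps18 (chr17:33955646-33955725, minus strand): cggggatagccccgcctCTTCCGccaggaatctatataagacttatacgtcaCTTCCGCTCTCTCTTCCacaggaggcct
Rpl38 (chr11:114668520-114668599, plus strand): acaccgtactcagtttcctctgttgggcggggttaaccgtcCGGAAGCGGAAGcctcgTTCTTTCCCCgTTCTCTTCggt
Rplp2 (chr7:141447591-141447670, plus strand): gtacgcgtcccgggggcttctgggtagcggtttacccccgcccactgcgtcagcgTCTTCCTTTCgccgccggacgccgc
Rpl10 (chrX:74270756-74270835, plus strand): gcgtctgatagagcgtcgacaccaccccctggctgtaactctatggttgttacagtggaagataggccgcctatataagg
Rps27 (chr3:90213629-90213708, minus strand): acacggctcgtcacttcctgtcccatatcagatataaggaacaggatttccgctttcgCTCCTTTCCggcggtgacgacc
Rps27rt (chr9:114982720-114982799, minus strand): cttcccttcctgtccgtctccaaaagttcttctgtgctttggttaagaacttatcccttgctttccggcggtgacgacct
The Rps27 and Rps27rt windows share letters at and after the start, where the transcribed copy begins, and differ before it.

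Levels were compared between genes per length, as the deposited TPM, which is scaled to transcript length and depth. The 77 subunit and stalk genes had a median of 1506 TPM over the 10 libraries. By the members' own TPM, without copies, Rps24 and Rpl41 had the highest means, 3037 ± 360 (SD over both groups, n = 10) and 2996 ± 399 TPM. Their means were 3337 and 3235 TPM in WT and 2737 and 2757 TPM in cKO, so their order differed between the groups. These SD include the difference between the groups, and no difference between genes was tested. Rpl13a (2857), Rpl23a (2654), Rps27 (2646), Rps2 (2587) and Rplp0 (2558 TPM) were also among the highest. Rpl5, which with Rpl11 and 5S rRNA also restrains Mdm2, stood lowest at 45.6 ± 2.68 TPM, 66.7-fold below Rps24. Of the 77 genes, 69 lay within 2-fold of the median.

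The low values belonged to genes whose reads are divided with copies. Where a read fits several loci, RSEM shares it out between them by an estimate, and 608 other genes matched a member at 95% identity or more over at least 80% of the copy. They took 15.6% to 16.9% of the counts of members and copies together in each library. Of the 86 members, 27 had over 10% of their combined counts assigned to copies and 10 had over 50%. The pseudogene Gm15500, which matches Rpl5 at 100% identity over 99.9% of its 1019 bases, took nearly all of the 96.1% of the combined counts that fell to copies of Rpl5. With the TPM of copies added to their member, Rpl5 stood at 2272 TPM and the range over the 77 genes shrank from 66.7-fold to 4.53-fold. With copies, 74 of the 77 genes lay within 2-fold of the median. Rpl28 then had the highest value, 3841 TPM (1191 TPM alone), above Rps24 at 3044 TPM. The order at the top thus also depended on the copies. Files of expected counts cannot show from which of the identical loci a read came.

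**Figure D1:**
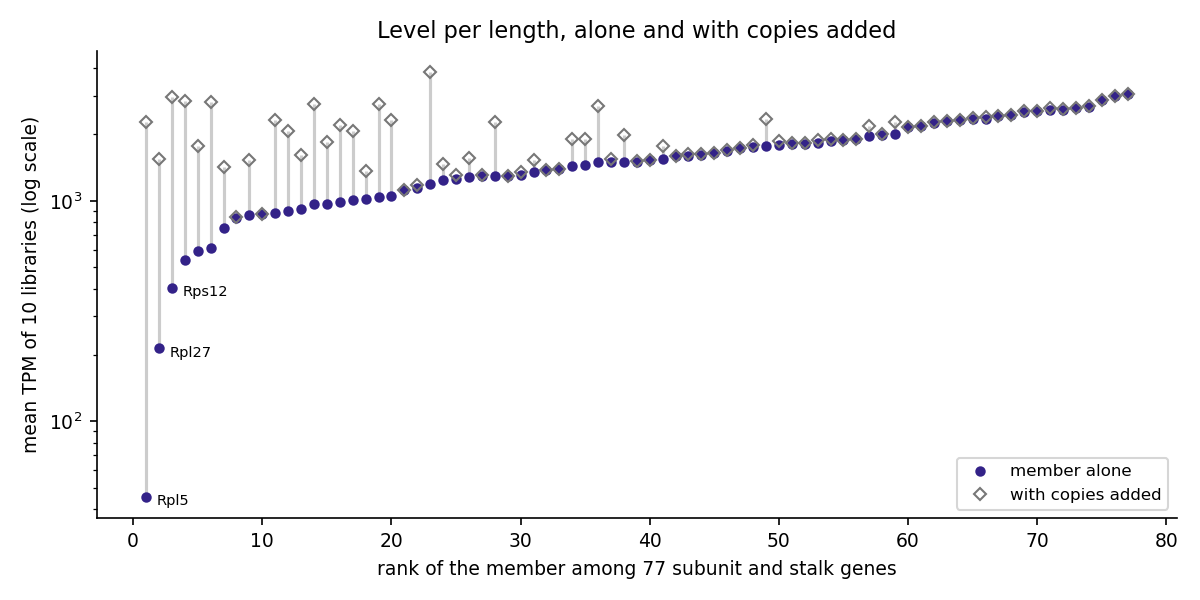
Mean TPM over 10 libraries (log scale) of each of the 77 subunit and stalk genes, ranked by the member's own value, with the value after adding its copies as an open diamond joined by a line. Rpl5, at 45.6 TPM alone and 2272 TPM with copies, moves the most, and with copies the genes lie within a 4.53-fold range.

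Summed over all 86 members, the ribosomal protein genes took a smaller share of the counts in cKO than in WT crypts. The share was 5.77%, 6.58%, 5.85%, 6.23% and 6.96% in the WT libraries and 4.94%, 5.30%, 5.55%, 5.03% and 5.02% in the cKO libraries. Every cKO library lay below every WT library, with means of 6.28% ± 0.498 and 5.17% ± 0.251 (SD, n = 5 each). On library sizes normalized by TMM (trimmed mean of M values, which sets the typical gene equal between libraries) the sum was 54326, 63679, 55903, 57592 and 69329 CPM in WT and 51698, 56158, 57826, 51074 and 53803 CPM in cKO. These groups overlapped. Their means were 60166 ± 6229 and 54112 ± 2878 CPM, a log2 ratio of −0.15, and WT replicates 5 and 2 were the highest of the 10. Without WT replicate 5 the log2 ratio was −0.08. The scaling factors ran from 1.00 to 1.08 in WT and from 0.934 to 0.986 in cKO libraries, so the 2 scales differ between the groups. In bulk crypts, fewer cells of a type rich in these mRNAs and less of the mRNA per cell cannot be told apart. Nor can either be told apart from other mRNAs taking a larger share of the counts.

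**Figure D2:**
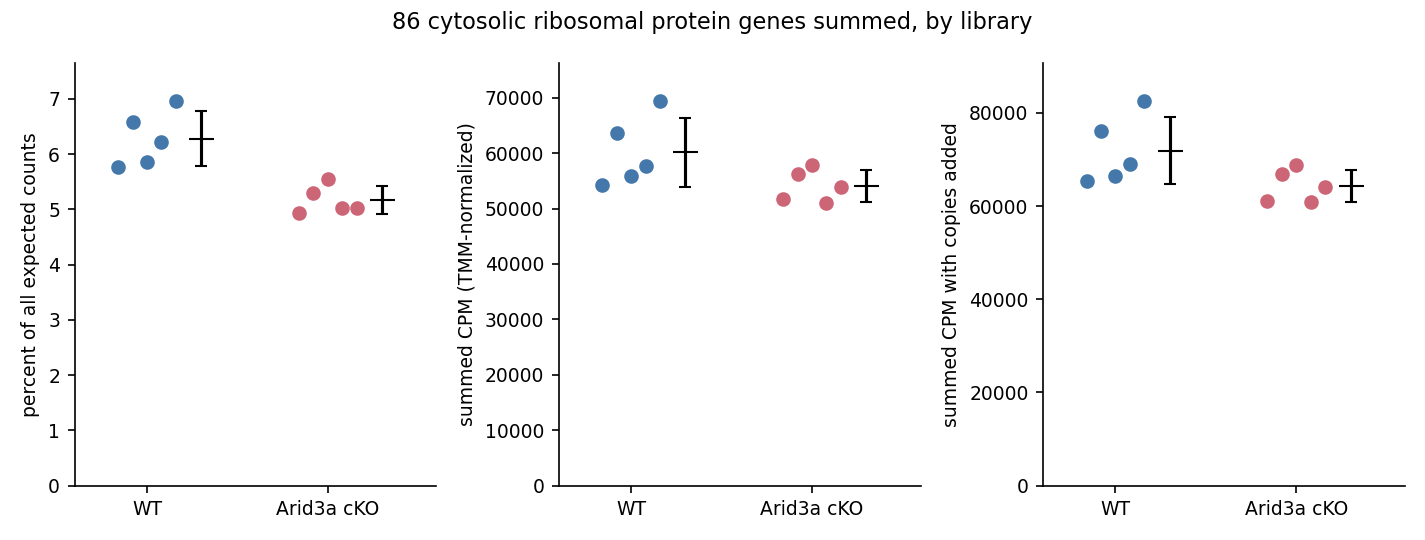
Summed level of the 86 members in each library as a percentage of all expected counts, as CPM on TMM-normalized library sizes, and as such CPM with the copies added. Points are libraries and bars the mean ± SD of 5, and the groups separate in the first panel and overlap in the others.

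The log2 ratios of the subunits were close to each other. The 31 small subunit genes summed to 25173 ± 2626 CPM in WT and 22489 ± 1235 CPM in cKO, a log2 ratio of −0.16. For the 43 large subunit genes the sums were 30862 ± 3125 and 27971 ± 1474 CPM (−0.14), and for the 3 stalk genes 3506 ± 403 and 3074 ± 146 CPM (−0.19). WT and cKO libraries overlapped for each of the 3 sums, and as shares of all counts each had every cKO library below every WT library. No difference between the subunits was tested.

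Taken singly, 83 members passed the filter on low counts and entered the test of edgeR over 14719 genes. The 3 that did not, Rpl3l, Rpl10l and Rpl39l, had at most 1 count in every library. Of the 83, 79 (95.2%) had a negative log2 fold change of cKO against WT and 4 a positive one, where 54.1% of all genes were negative. The members' median was −0.15 beside −0.03 for all genes tested. Past an adjusted p of 0.05, 6 members fell and none rose. That is 7.23% of the 83, where 28.3% of all genes passed, 12.7% lower and 15.6% higher. On this scale the members' share called was below the background in both directions, and with library size only it was above it, at 83.1% lower against 27.4%. At an unadjusted p below 0.05, 25 members (30.1%) were lower and 0 higher, where 20.1% of all genes were lower. DESeq2 called 7 members (8.43%) lower and 0 higher, where 13.1% of all genes with an adjusted p were lower. Without WT replicate 5 the members' median was −0.08, beside −0.01 for all genes. In that run 73 members were negative and 10 positive, and 3 were called. The share of all genes called in that run is not given here. In 6 members every cKO library lay below every WT library, 7.23% of the 83 against 7.62% of all genes tested.

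**Figure D3:**
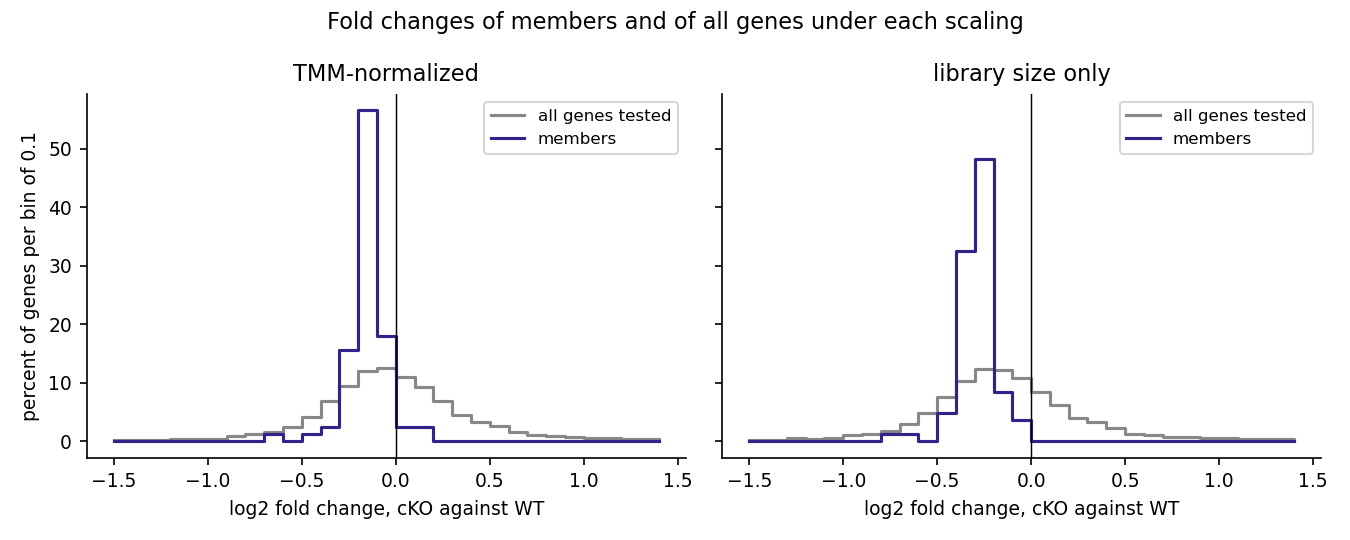
Percentage of the 83 tested members and of all 14719 tested genes in each 0.1-wide bin of the log2 fold change, with TMM factors and with library size only (genes beyond ±1.5 not drawn). Members form a narrow peak just below 0 on the left (median −0.15) and further left with library size only (median −0.27), where all genes shift too.

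The 6 called members were Rps12 and Rps19 of the small subunit, Rpl10 and Rpl12 of the large subunit, and the paralogs Rpl7l1 and Rps27rt. Of these, Rps19, Rpl7l1 and Rps27rt had under 2% of their combined counts in copies, and Rps27rt is described below with Rps27. Rps19, a small subunit protein whose loss causes Diamond-Blackfan anemia, is on chromosome 7 (24884371 to 24889806, GRCm38). It had 426, 527, 462, 482 and 577 CPM in WT and 389, 398, 450, 392 and 399 CPM in cKO crypts. Only cKO replicate 3 reached into the WT range. The log2 fold change was −0.29 ± 0.09 (SE, edgeR adjusted p = 0.0263), and −0.28 (adjusted p = 0.0269) with its copies added. Rpl7l1, a paralog of Rpl7 that acts in ribosome assembly, is on chromosome 17 (46773907 to 46782672). Its values were 119, 135, 122, 151 and 165 CPM in WT and 118, 113, 119, 106 and 115 CPM in cKO crypts, with no overlap. It changed by −0.28 ± 0.09 on the log2 scale (adjusted p = 0.0337). The calls of both were lost without WT replicate 5 and without cKO replicate 1, 2, 4 or 5, and that of Rpl7l1 also without WT replicate 4 or cKO replicate 3 and with effective lengths, with log2 fold changes of −0.34 to −0.21 for Rps19 and −0.33 to −0.19 for Rpl7l1 when 1 animal was left out.

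The other 4 called members have the same sequence as another locus, which for Rps27rt is the member Rps27 and not a counted copy. Rpl10, a large subunit protein that joins late and is needed for the subunits to pair, is on chromosome X (74270812 to 74273135). It had 648, 775, 723, 737 and 920 CPM in WT and 580, 535, 584, 516 and 498 CPM in cKO crypts. These values did not overlap, and the log2 fold change was −0.49 ± 0.09 (adjusted p = 0.00354). Rpl10-ps3 on chromosome 9 (50344201 to 50344968), listed as protein-coding and 100% identical to Rpl10 over 96.4% of its length, went the other way, with a mean of 312 ± 37.0 CPM in WT and 564 ± 34.2 CPM in cKO (log2 fold change 0.85 ± 0.09, adjusted p = 0.000259). Another identical locus, Rpl10-ps1 on chromosome 2, had 127 ± 24.4 and 20.3 ± 16.1 CPM. Added together, Rpl10 and its copies had 1107, 1285, 1112, 1160 and 1342 CPM in WT and 1110, 1128, 1200, 1074 and 1128 CPM in cKO crypts. The groups then overlapped, and the log2 fold change was −0.09 ± 0.07 (adjusted p = 0.381), so the call on Rpl10 was lost.

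Rpl12, which sits at the base of the stalk, had 554, 616, 558, 594 and 703 CPM in WT and 461, 505, 459, 474 and 498 CPM in cKO crypts, with no overlap. Its log2 fold change was −0.34 ± 0.08 (adjusted p = 0.00795). Its identical copy Gm10275 took 99.5% as many counts as Rpl12 and was not called, at −0.11 on the log2 scale (adjusted p = 0.347). With copies added, Rpl12 remained lower at −0.22 ± 0.08 (adjusted p = 0.0428), and the groups still did not overlap. Rps12 of the small subunit had 147, 187, 144, 154 and 211 CPM in WT and 141, 135, 143, 125 and 134 CPM in cKO crypts. WT replicate 3 and cKO replicate 3, both near 144 CPM, nearly touched. The log2 fold change was −0.31 ± 0.10 (adjusted p = 0.0399), copies took 81.7% of the combined counts, and with them added the log2 fold change was −0.23 ± 0.08 (adjusted p = 0.0642). Its call was also lost when WT replicate 2 or 5 or any 1 cKO animal was left out, with no filter and with effective lengths.

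Rps27rt had the most negative log2 fold change of the members, −0.64 ± 0.10 (adjusted p = 0.0015). It is a single-exon gene on chromosome 9 (114982366 to 114982739) whose transcript matches that of Rps27 at 100% identity over 341 bases, 91.2% of its length. It had 22.8, 24.2, 24.9, 26.2 and 30.3 CPM in WT and 19.1, 15.6, 15.7, 14.0 and 17.6 CPM in cKO crypts, with no overlap. Rps27 had a mean of 546 ± 79.5 CPM in WT and 503 ± 32.0 CPM in cKO and was not called (−0.12 ± 0.10, adjusted p = 0.375). Rps27rt thus held 4.52% ± 0.437 of the counts of the pair in WT and 3.17% ± 0.473 in cKO. The pair together, a sum made after these values were seen, had a log2 ratio of −0.14 and overlapping groups.

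With the counts of all copies added to their members, the same test called 4 of the 83 lower (Rps27rt, Rpl12, Rps19 and Rpl7l1, all among the 6 above) and 0 higher, where 12.9% of all genes were lower. Rps27rt had no counted copy, so adding copies left its counts as they were. With copies added, the log2 fold change was below 0 in 82 of the 83. The median over members was −0.16, beside −0.03 for all genes. The members also drew together. The SD of their log2 fold changes was 0.10 with their own counts and 0.07 with copies added, and the middle 80% ran from −0.23 to −0.06 and from −0.21 to −0.11. Of the 4 members that were positive alone, 3 were negative with copies. For Rpl10a the value was 0.13 alone and −0.12 with copies, Rpl5 0.13 and −0.16, and Rpl13 0.01 and −0.18. Their identical copies Rpl10a-ps1 (−0.48, adjusted p = 0.0027) and Gm12918 (−0.36, adjusted p = 0.0047) were called lower while Rpl10a and Rpl13 were not called. Rpl22l1, with 1.12% of its counts in copies, was the fourth and stayed positive at 0.09. Among the 56 tested members with under 10% of their counts in copies, the median was −0.16 and 3 were called, Rps19, Rpl7l1 and Rps27rt. Rps27rt is in this set because Rps27, a member, was not counted as its copy.

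**Figure D4:**
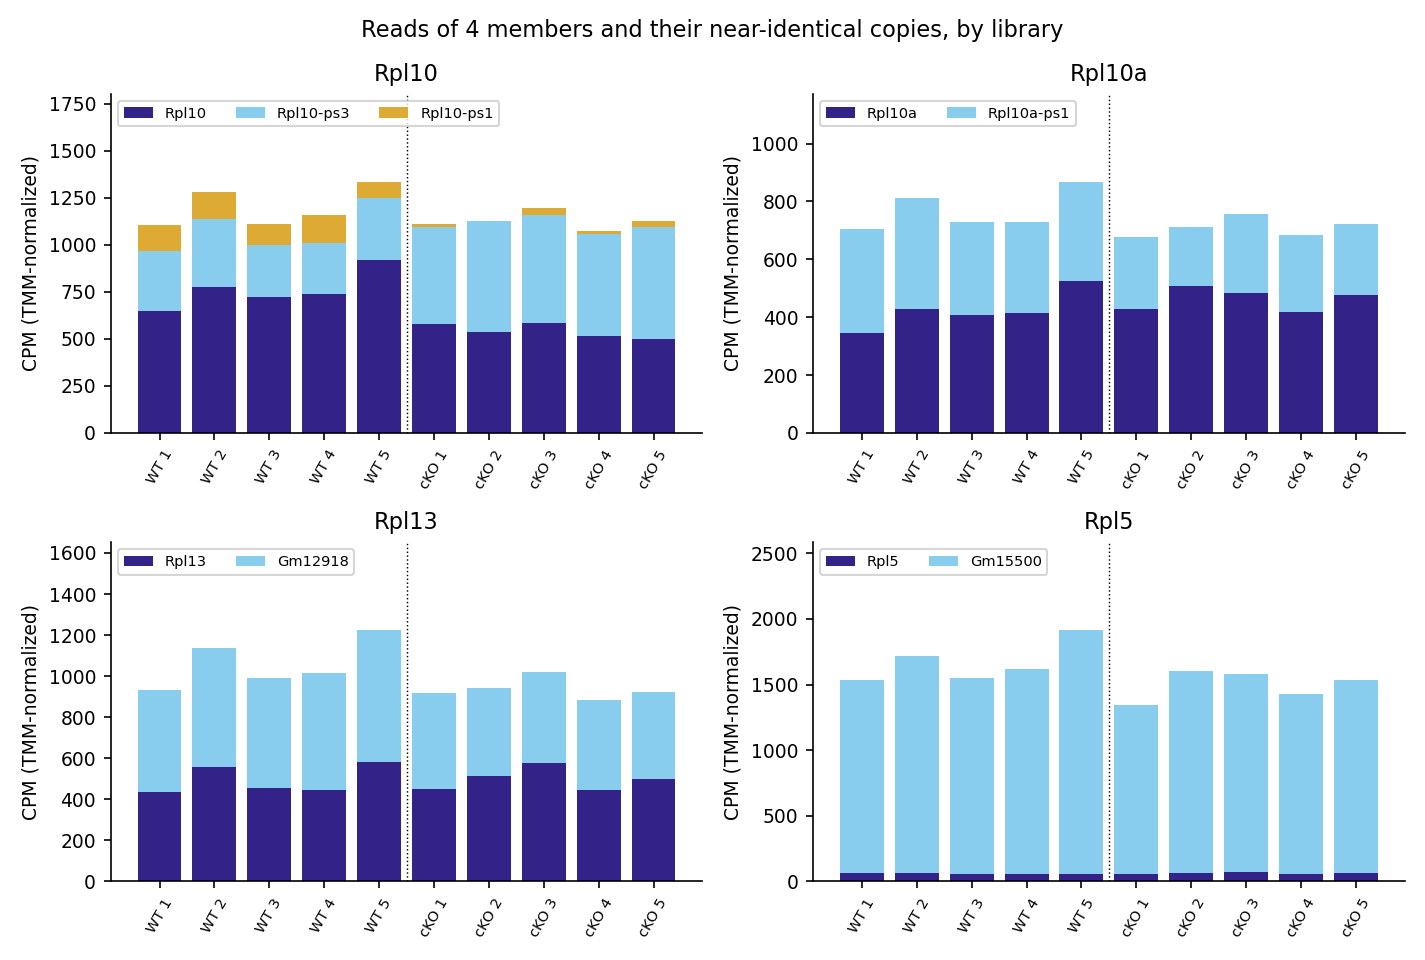
CPM on TMM-normalized library sizes of Rpl10, Rpl10a, Rpl13 and Rpl5 (dark) and of the copies that hold over 1% of the member's counts (light and yellow), stacked for each of the 10 libraries. The division between Rpl10 and Rpl10-ps3 differs between WT and cKO libraries while their total overlaps, and Gm15500 takes most of the Rpl5 counts in every library.

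Many well-known members did not pass the test. The stalk protein genes were close to each other. On the log2 scale the fold change was −0.19 ± 0.08 for Rplp0 (adjusted p = 0.111), −0.19 ± 0.09 for Rplp1 (adjusted p = 0.134) and −0.20 ± 0.09 for Rplp2 (adjusted p = 0.11). Rplp0, the most abundant of them, had 2024, 2323, 2090, 2136 and 2608 CPM in WT and 1924, 2031, 2098, 1859 and 1911 CPM in cKO crypts, where 2 cKO libraries lay above the lowest WT library. In the small subunit, Rpsa, also known as the laminin receptor, had −0.19 ± 0.08 (adjusted p = 0.085). Rps24 and Rps2 had −0.19 each, and Rps14 −0.17 ± 0.11 (adjusted p = 0.263). Rps6, the target of S6 kinase, had −0.09 ± 0.08 alone (adjusted p = 0.429) and −0.14 with its copies, of which Rps6-ps4 exceeded Rps6 in counts. Rps27a, made as a fusion with ubiquitin, had −0.11 ± 0.11 (adjusted p = 0.459).

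In the large subunit, Rpl4, a protein with a long extension into the exit tunnel, was the sixth member with no overlap. It had 2212, 2337, 2275, 2293 and 2410 CPM in WT and 1957, 2140, 2201, 2035 and 2126 CPM in cKO crypts. Its log2 fold change of −0.14 ± 0.07 was not called (adjusted p = 0.128). Rpl11, the partner of Rpl5, had −0.21 ± 0.10 (adjusted p = 0.159). Rpl13a had −0.21 ± 0.09, Rpl23a −0.18 ± 0.08, Rpl41, the smallest of the proteins, −0.14 ± 0.12, and Rpl38, needed for translation of Hox mRNAs, −0.10 ± 0.09, none of them called. Outside the symbol rule, Rack1, a scaffold on the small subunit, was lower (−0.22 ± 0.08, adjusted p = 0.0467). Fau, which encodes a ribosomal protein fused to a ubiquitin-like part, was not called (0.01 ± 0.10). Rps19bp1 had −0.22 ± 0.09 (adjusted p = 0.0944).

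**Figure D5:**
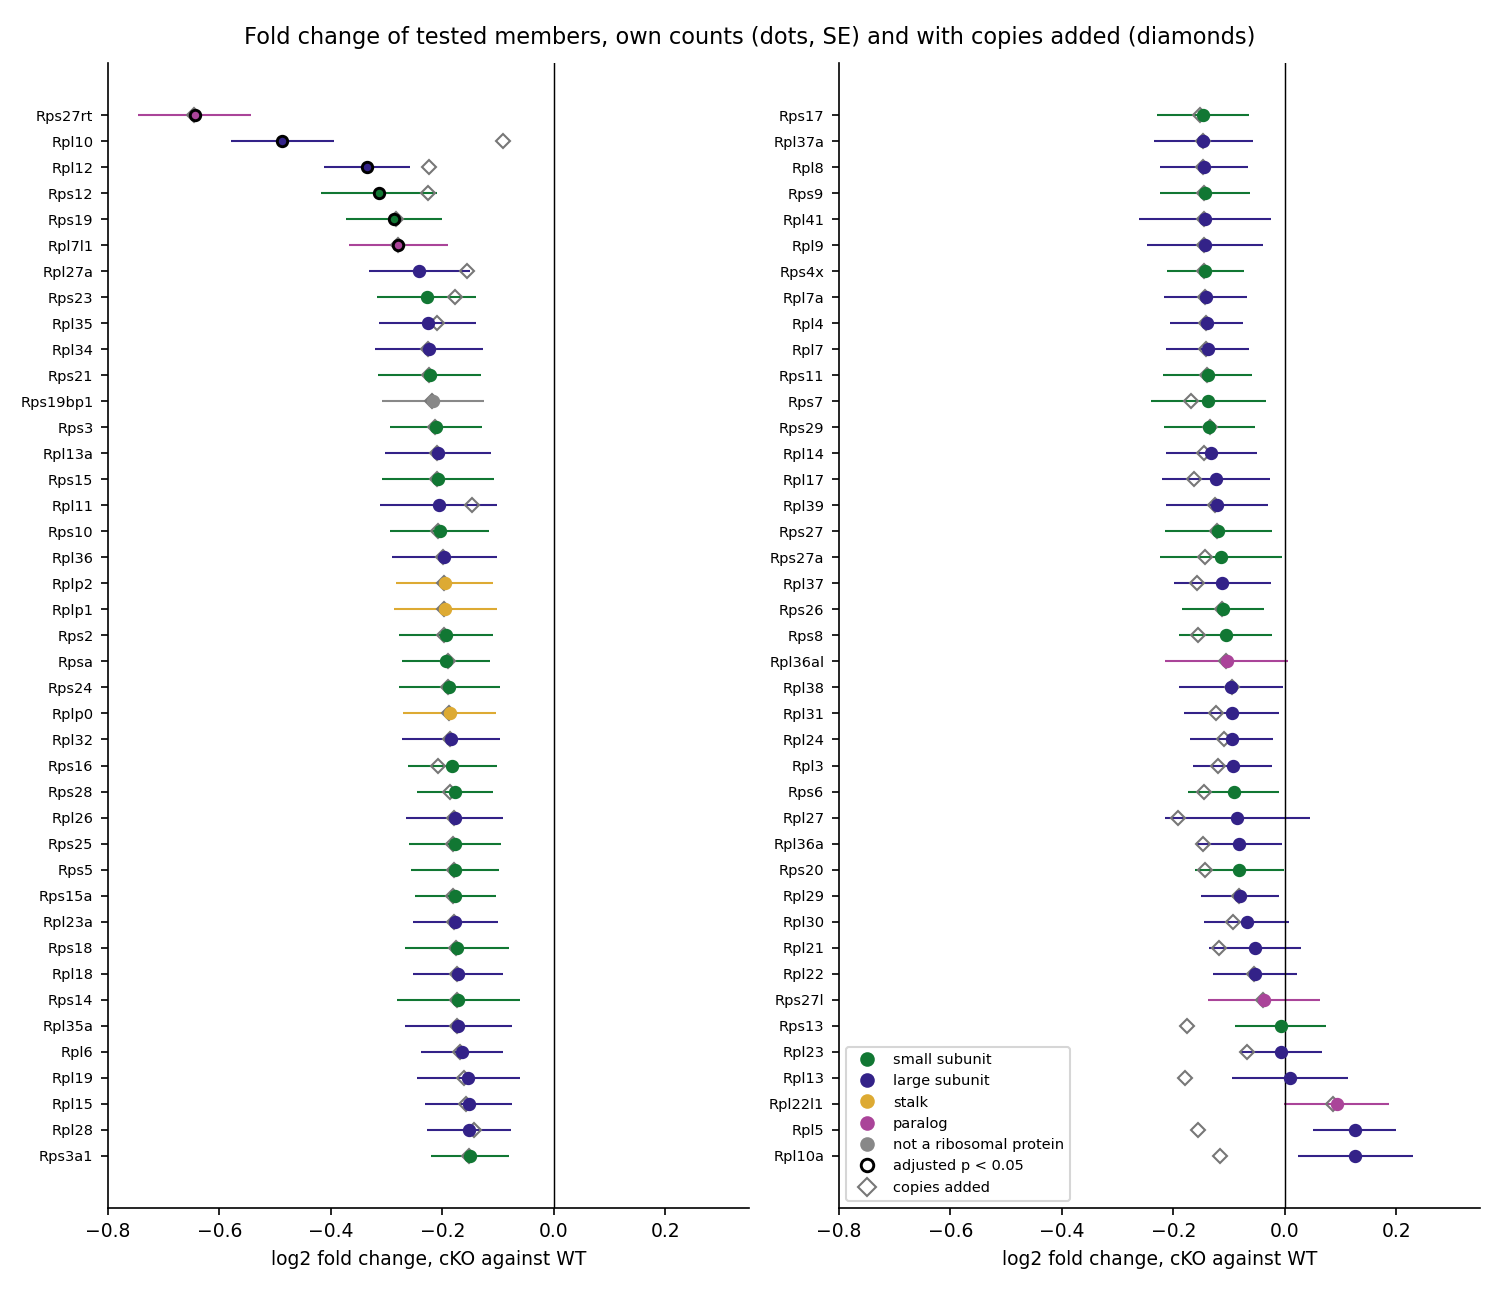
Log2 fold change (cKO against WT, TMM-normalized) of each tested member but 1 from its own counts (dots, bars are the SE, colour is the subunit, black rim marks an adjusted p below 0.05) and with copies added (open diamonds). Nearly all lie between −0.3 and 0, and Rpl10, Rpl5, Rpl10a, Rpl13 and Rps13 move the most when copies are added.

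The number of called members turned on the scaling. With library size only, all 83 had a negative log2 fold change and 69 (83.1%) were called lower, where 27.4% of all genes were lower, and the members' median was −0.27. All genes shifted too, from a median of −0.03 to −0.16, so the members lay 0.11 below the median of all genes on both scales. Rps24 is an example, at −0.19 (adjusted p = 0.139) with TMM and −0.32 with library size only, where it was called. With a trend of the fold change on transcript length and GC content taken out, 20 members (24.1%) were lower, against 15.4% of all genes, and the median was −0.11.

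To compare members with each other, the test was repeated with the summed counts of the family as the library size. Relative to the family, 2 of the 83 were lower, Rps27rt (−0.49, adjusted p = 0.00545) and Rpl10 (−0.33, adjusted p = 0.00652), where 2.66% of all genes were lower. Another 2 were higher, Rpl10a (0.28, adjusted p = 0.0122) and Rpl5 (0.26, adjusted p = 0.0474), where 21.3% of all genes were higher. In neither direction did the members' share exceed that of all genes. The members' own counts set this scale, so their median lay near 0, at 0.005 beside 0.11 for all genes. These shares therefore say nothing about the family as a whole. The call on Rpl5 was lost when any 1 animal other than WT replicate 1 was left out, with an adjusted p of up to 0.106. The other 79 tested members were not called. With copies added, Rps27rt alone differed (−0.48, adjusted p = 0.00561), where 2.59% of all genes were lower, and no member was higher. That setting could not take out the sharing of reads between Rps27rt and Rps27, since Rps27 is a member and not a counted copy.

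Of the 8 listed pairs of a paralog and its main gene, which do not include Rps27rt with Rps27, 5 had enough counts in both. The others were those of Rpl3l, Rpl10l and Rpl39l. Rpl22l1 had 26.6% ± 1.06 of the counts of Rpl22 in WT and 29.3% ± 3.06 in cKO crypts, a difference of 0.14 in the log2 ratio (exact two-sided permutation test, p = 0.103, adjusted over 5 pairs p = 0.238). Rps27l, a paralog of Rps27 induced by p53, had 19.4% ± 0.970 and 20.5% ± 1.38 of the counts of Rps27 (adjusted p = 0.238 by the exact test). Rpl7l1 had 9.49% ± 0.842 and 8.63% ± 0.415 of the counts of Rpl7 (adjusted p = 0.238 by the exact test), and Rpl36al 118% ± 12.4 and 117% ± 7.70 of those of Rpl36a (adjusted p = 0.921 by the exact test). Rps4l, annotated as a transcribed pseudogene and so no member, had 2.84% ± 0.433 and 2.19% ± 0.742 of the counts of Rps4x, a difference of −0.43 in the log2 ratio (adjusted p = 0.238 by the exact test). WT and cKO libraries overlapped in all 5 ratios and none passed the test. Copies took 53.3% of the combined counts of Rpl36a, so its ratio to Rpl36al depends on that division. Without cKO replicate 4, the Rpl22l1 ratio passed the threshold (difference 0.20, exact adjusted p = 0.0397).

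Members with and without the promoter letters had close median fold changes. With copies added, the median log2 fold change was −0.16 for the 28 genes with the C or T run and −0.17 for the 29 without, and −0.16 for the 40 with CGGAAG and −0.17 for the 17 without.

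Other genes of ribosome production and translation were read against the 12.7% of all genes that were lower and the 15.6% that were higher. Of 44 genes for ribosome biogenesis and RNA polymerase I, 36 were lower in cKO crypts and 0 higher, with a median of −0.39. Among them were Ncl (nucleolin, −0.34), Fbl (fibrillarin, −0.35), Nop56 (−0.47) and the polymerase I subunit Polr1b (−0.41), all past an adjusted p of 0.05. Of 15 genes listed as chaperones and import factors of ribosomal proteins, 6 were lower, with Grwd1 (−0.65) and Heatr3 (−0.44) among them. Not all of the 15 are dedicated to that role, Bola3, Aar2, Btf3, Naca and Nap1l1 among them, and of these Nap1l1 alone was called. The list also holds the member Rps19bp1, which was not called. The cytosolic aminoacyl-tRNA synthetases had 12 of 19 lower (median −0.23) and the initiation factors 7 of 34 (median −0.11). Elongation factors and other TOP mRNAs had 1 of 18 lower (Nap1l1, −0.30), with Eef1a1 at −0.07 and Eef2 at 0.12, neither called. Some of the lists share genes, and Nap1l1 is also among the lower genes of the chaperone list. Of 17 regulators of TOP mRNAs, 2 were higher, with Larp4b (0.27) among them, and none was lower, and Larp1 had −0.21 (adjusted p = 0.0603). The 78 mitochondrial ribosomal protein genes had 3 lower and a median of −0.09. Without WT replicate 5, 34 biogenesis genes were lower, but 6 synthetases, 3 initiation factors, 1 mitochondrial gene and no elongation or other TOP mRNA, and Rack1 was not called. The median of all genes was then −0.01. The share of all genes called in that run is not given here, so these counts have no background. No list was tested against another.

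Levels of several cell type markers also differed between the groups. The 6 enterocyte markers, Alpi and Fabp1 among them, summed to between 884 and 4600 CPM in WT and between 6061 and 11161 CPM in cKO crypts, and all 6 were higher (4 without WT replicate 5). The 5 Paneth cell markers, Lyz1 among them, summed to between 16393 and 24885 CPM in WT and between 10583 and 14178 CPM in cKO, and all 5 were lower. Of 7 stem and transit-amplifying cell markers, 5 were lower, and their sums (5485 to 8522 and 4280 to 6152 CPM) overlapped. The 4 B and plasma cell markers summed to between 19.0 and 49.0 CPM in WT and between 6.22 and 15.8 CPM in cKO, with 1 called lower. The 3 enteroendocrine markers (317.5 to 391 CPM in WT, 417 to 646 CPM in cKO) and the 3 tuft cell markers (53.8 to 60.8 and 63.6 to 71.7 CPM) had every cKO sum above every WT sum, with 2 of each list called higher. With library size only, 0 of either list was called higher, while all 6 enterocyte markers stayed higher and all 5 Paneth markers lower. Without WT replicate 5, 1 enteroendocrine and 2 tuft cell markers were called higher. Sums of goblet, T cell, myeloid, stroma, muscle and red cell markers overlapped. The part of these shifts in the level of the ribosomal protein genes was not tested.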

How the data were processed

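RNA was measured in 5 WT and 5 cKO crypt libraries, grouped by the genotype in their labels. The authors ran nf-core/rnaseq (STAR, RSEM) against Ensembl GRCm38 and deposited, per library and gene, the expected count, which is not normalized, and the TPM, which is scaled to length and depth. The FPKM were not used. Numbers of expected counts per library were 27050455 to 31053622, so the spread between animals, not counting, limits abundant members.

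Expected counts were rounded and fitted in edgeR 4.0.16 (filterByExpr, minimum count 10, minimum total 15, TMM, robust quasi-likelihood test, Benjamini-Hochberg over 14719 genes, threshold 0.05). The study used DESeq2, run here (1.42.0) as an alternative. SE are those of the log2 fold change. Copies were found with BLAST 2.17.0 (at least 95% identity, 80% coverage, same strand) among GENCODE M21 transcripts (GRCm38). Ratios of paralogs (counts plus 0.5) were tested by exact permutation of all 252 assignments, whose smallest p is 0.00794. Named genes were called members among the 6 most negative and 6 most positive log2 fold changes (mean of at least 50 counts), the 8 with the highest TPM, the paralogs, well-known members, and copies over 1% of a member's counts. Rpl4, Rpl10a, Rpl13, Rpl28 and Rps13 were named after their values were seen. A few genes that these rules take are not reported here. Members and lists were chosen with earlier results of these data known. Scripts were tested on simulated data. Other alternatives were RLE factors, library size only, TMM without the family, unrounded counts, no filter, a filter of 10 counts in each library, limma-voom 3.58.1, replicate block, 1 surrogate variable (sva 3.50.0), length and GC trend (mgcv 1.9.3), effective length, copies added, fold change above 1.5, and leaving out each animal. Labels do not say that animals of a number belong together, and the letters that open the animal identifiers differ between the genotypes. What these letters stand for is not stated, and it cannot be told apart from genotype.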

Additional observations from a re-analysis of the deposited data

Results flagged for a closer look

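In 2 of the 62 groups of 5 libraries examined, 1 animal stood far from the other 4, both times cKO replicate 3. Its Rplp2 level was 405 CPM and its Rps19 level 450 CPM, each the highest of the cKO libraries. Chance alone flags about 1 in 20 such groups.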

How the results depend on the processing

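The number of members called lower, 6 in the analysis described, was 69 with library size only, 20 with the length and GC trend, 3 with the replicate block and 1 with a fold change above 1.5. Leaving out 1 animal gave 3 to 10 (3 without WT replicate 5, or cKO replicate 1, 2, 4 or 5, and 10 without WT replicate 1). The share of all genes called in those runs is not given here. No alternative run called a member higher. The median log2 fold change was −0.27 with library size only and −0.18 to −0.08 when 1 animal was left out, and the log2 ratio of the summed level was −0.28 with library size only and −0.19 to −0.08. Relative to the family, 2 members were lower and 2 higher, against 1 and 0 with copies added, 1 higher with the replicate block, and 1 to 2 higher when 1 animal was left out (2 only without WT replicate 1 or cKO replicate 4). The difference in the Rpl22l1 ratio ran from 0.088 to 0.20 when 1 animal was left out and passed the threshold without cKO replicate 4. The causes were not tested. Apart from the fold threshold, which Rps27rt alone passed, Rpl12 and Rps27rt were called in all 23 alternatives, Rpl10 in 22 (not with copies added), Rps19 in 17, Rpl7l1 in 14 and Rps12 in 12. The replicate block lost the last 3. Adding copies could not change the counts of Rps27rt, because Rps27 is a member and not a counted copy. Among the biogenesis genes, 28 to 42 were called lower, a range added after the data were seen. Animals with the same number did not deviate together (correlations of −0.40 to 0.13, 1 of 5 numbers matched best with itself), so the numbers do not pair the animals. Sums could not be had for fits without their own scaling.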
